A study of Saccharomyces cerevisiae with 2 samples.

Results

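The genes of the pheromone, high-osmolarity and cell wall integrity MAP kinase pathways of budding yeast were examined as heterozygous deletion strains. The members were chosen by gene symbol from a list of 43 pathway genes. Of these, 42 had probes on the array and 41 were measured as single strains, among 5219 measured strains in all. The pheromone pathway was represented by 16 of 18 listed genes, the high-osmolarity pathway by 10 of 10 and the cell wall integrity pathway by 15 of 15. STE18 was matched to no probe. STE2, the alpha-factor receptor gene, stood on more than 1 tag pair and was kept out of the counts.

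The strains came from a pool of 5896 haploid-convertible diploids, each with 1 copy of a different gene deleted. The pool was transformed with tub1D::URA3, which replaces 1 copy of the alpha-tubulin gene TUB1, or, as the control, with ura3D::URA3, which puts URA3 back at its own locus. Both pools thus consisted of URA3 transformants of the same diploids, selected for 2 days at 30 °C without uracil, and every strain still held 1 intact copy of its deleted gene. Molecular barcodes, called tags, were amplified from genomic DNA and labelled with Cy3 for the tub1 pool and Cy5 for the control pool, and both were hybridised to 1 array in each of 2 experiments. The labels do not say whether the experiments were separate transformations. SDs and p-values of strain means therefore cover the spread from array to array alone, and it may be technical. Fits that use both tags as separate values also take in the spread between tags.

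MAP kinase pathways pass a signal through 3 kinases in series, of which the last phosphorylates transcription factors and other targets. In the pheromone pathway a receptor frees the Ste4-Ste18 part of a G protein, and the kinases Ste11, Ste7 and Fus3, held by the scaffold Ste5, activate Ste12. The high-osmolarity pathway leads from the sensors Sln1 and Sho1 through Pbs2 to Hog1, and the cell wall integrity pathway leads from surface sensors through the GTPase Rho1 and protein kinase C (Pkc1) to Slt2. Diploid cells of mixed mating type do not respond to pheromone, whereas the other pathways act in diploids as well.

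Each strain carried a first and a second tag, and its value is the log2 ratio of both dyes, centred on the median of each array and tag set and averaged over both tags. Means are given ± SD over n = 2 arrays. The labels do not state the direction of the ratio, and the deposited sign was kept. From the dyes and the usual red over green ratio of the scanner program, a negative ratio likely stands for more, and a positive ratio for fewer, tags in the tub1 pool than in the control pool. The strain with TUB1 itself deleted gave no value to check this on. The strain of TUB3, the other alpha-tubulin gene, stood at the positive end of the 5219 strains, at 4.22. The labels leave the opposite reading possible. Ratios are therefore called negative or positive and not higher or lower in a pool. Spot brightness was not used here, so the signal behind a ratio is unknown, and the number of arrays limits the precision.

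The pathway strains as a whole lay where the other strains lay, and 4 strains stood far to the negative side. The median of the 41 strains was -0.07, against -0.09 over all 5219 strains, and was -0.09 on array 1 and -0.07 on array 2. At least 2-fold negative ratios on both arrays were found for RLM1, DIG2, MID2 and BAG7, which is 9.76% of the members, against 3.74% of all strains. By the R64 gene table these genes lie on different chromosomes, DIG2 on IV, MID2 on XII, BAG7 (YOR134W) on XV and RLM1 on XVI. None of the 41 members was 2-fold positive on both arrays, against 0.728% of all strains. Ratios were negative on both arrays for 20 members (48.8%, against 41.7% of all strains) and positive on both for 11 (26.8%, against 32.7%). On array 2 alone 4 members (9.76%) were 2-fold negative, against 5.84% of all strains, and these were the same strains. On array 1 alone 8 members (19.5%) were so, against 19.3%. These shares rest on few strains and were not tested. The 4 further members on array 1 were STE3, GPA1, SLN1 and PKC1.

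No member passed the test across all strains. By limma with Benjamini-Hochberg adjustment, 0 of 41 members had an adjusted p under 0.05, as did 0.0% of all strains in either direction, and the members' adjusted p-values ran from 0.229 to 0.957. At an unadjusted p under 0.05 there were 10 negative members (24.4%, against 11.7% of all strains) and 1 positive member (2.44%, against 9.12%). This test used the mean of both tags and so did not see whether they agreed. Among the 10, STE50 and SSK1 had tags of opposite sign on both arrays, and BAG7 and SLT2 were negative mainly through the first tag. How often this held among all strains was not counted. When both tags of each array entered limma and arrays were a random block, DIG2 (adjusted p 0.00937), WSC3 (0.0359) and RLM1 (0.0482) passed, among 3.18% of all strains that passed as negative and 6.71% as positive. The correlation within arrays was estimated at -0.289 in that fit, and a negative estimate makes standard errors smaller than for independent values. Both tags of a strain counted as separate values there, although they are not replicates. Its p-values are thus no measure of the spread between experiments. Blocking on the tag set instead, an alternative added once the data had been seen, left DIG2 (adjusted p 0.0413) as 1 of 3 strains that passed, or 0.0575%.

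**Figure D1:**
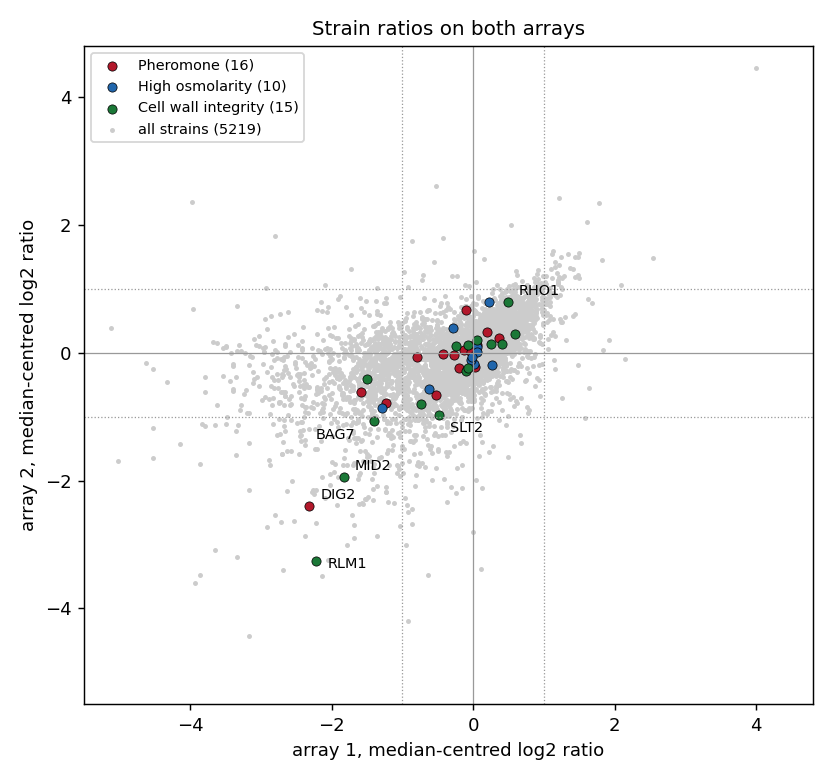
Median-centred log2 ratio of each strain on array 1 (horizontal axis) and array 2 (vertical axis), with the 41 pathway strains coloured by pathway over all 5219 strains in grey; dotted lines mark 2-fold. RLM1, DIG2, MID2 and BAG7 lie in the lower left field beyond 2-fold on both arrays, and no pathway strain lies in the upper right field.

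The cell wall integrity pathway held 3 of these 4 strains, which is 20.0% of its strains, against 3.74% of all strains. Its 15 strains had a median of -0.16, with -0.10 on array 1 and -0.24 on array 2. On both arrays 8 were negative (53.3%, against 41.7% of all strains) and 5 positive (33.3%, against 32.7%). The 15 strains ran from RLM1 at -2.74 to RHO1 at 0.64.

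Among the surface sensors of this pathway that were members, which detect stress on the cell wall, the strains differed. MID2 (YLR332W) had tags at -1.67 and -2.0 on array 1 and -0.47 and -3.43 on array 2, so that all 4 were negative. Its mean was -1.89 ± 0.08, or 3.71-fold, with an adjusted p of 0.229 by limma. On array 2 its tags lay 2.96 apart, far more than its arrays did. WSC3 was negative in all 4 tag values, from -1.08 to -0.53, with a mean of -0.77 ± 0.05. WSC2 was positive in all 4, from 0.11 to 0.78, with a mean of 0.44 ± 0.21. The sensor genes WSC1 and MTL1, which were not members, stood near 0, at -0.002 ± 0.04 and 0.04 ± 0.29.

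The GTPase gene RHO1, whose product switches on Pkc1 and glucan synthase, had the most positive ratio of all 41 members. Its tags stood at 0.13 and 0.85 on array 1 and 0.59 and 1.0 on array 2, all positive. The mean was 0.64 ± 0.21 (limma adjusted p 0.233), which placed it at rank 289 of 5219 from the positive end. The exchange factors that load Rho1 with GTP stayed nearer to 0, at 0.27 ± 0.19 for ROM1, -0.07 ± 0.25 for ROM2 and 0.03 ± 0.14 for TUS1. Of the GTPase-activating proteins, which switch Rho1 off, the members were SAC7, at -0.16 ± 0.12, and BAG7, at -1.24 ± 0.24. The BAG7 value rested on the first tag, at -2.72 on array 1 and -2.14 on array 2, whereas the second tag gave -0.10 and 0.00. LRG1 and BEM2, further genes for such proteins, were not members and stood on opposite sides of 0. LRG1 had -0.70 ± 0.53, and BEM2 had 0.79 ± 0.29 with all tags positive.

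The kinases of the cell wall cascade showed no shared direction. PKC1 had tags at -0.18 and -2.82 on array 1 and -0.22 and -0.60 on array 2, with a mean of -0.96 ± 0.77. All 4 values were negative, but the size came from the second tag on array 1. BCK1, the first kinase of the cascade proper, had -0.19 ± 0.13, with tags at -0.18 and -0.02 on array 1 and -0.40 and -0.18 on array 2. The redundant kinases below it were slightly positive on both arrays. MKK1 had 0.19 ± 0.08, with tags between 0.12 and 0.30, and MKK2 had 0.12 ± 0.10, with tags between -0.13 and 0.29. The MAP kinase SLT2 was negative on both arrays at -0.73 ± 0.35 (limma adjusted p 0.238), and here too the tags disagreed. Its first tag gave -0.78 on array 1 and -2.04 on array 2, and its second tag gave -0.19 and 0.08.

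RLM1 (YPL089C), the MADS-box transcription factor that Slt2 activates at cell wall genes, had the lowest ratio of all members and rank 14 of 5219 from the negative end. Its tags gave -2.38 and -2.05 on array 1 and -1.43 and -5.09 on array 2, so that all were more than 2-fold negative. The mean was -2.74 ± 0.74, or 6.66-fold, with a limma adjusted p of 0.229. Each RLM1 tag had 6 spots. They ran from -3.35 to -1.88 and from -2.44 to -1.44 on array 1. On array 2 the first tag ran from -3.02 to -0.31, the widest scatter of that tag among the 16 members with 6 spots, and the second from -5.60 to -4.28. All 24 spots were negative, and the tags agreed on array 1 but not on array 2. Without spots under a deposited log2 ratio of -5, near the smallest ratios, the RLM1 mean was -2.54.

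In the pheromone pathway the strain of 1 transcriptional inhibitor stood apart and most others lay near 0. The 16 strains had a median of -0.13, with -0.16 on array 1 and -0.03 on array 2. Ratios were negative on both arrays for 8 strains and positive on both for 3.

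The receptor gene STE3, for a-factor, had a mean of -1.10 ± 0.68, with tags at -0.33 and -2.82 on array 1 and -0.87 and -0.35 on array 2. The STE2 tags could not be assigned to 1 strain. Its tag pairs gave 0.22 and 0.03 on array 1 with 0.31 and 0.01 on array 2, and 0.82 and 0.43 on array 1 with 0.54 and 0.44 on array 2. All 8 STE2 values were above 0 and all 4 STE3 values below it. Of the G protein genes, GPA1, whose product holds Ste4-Ste18 inactive, had -1.004 ± 0.31, with tags at 0.37 and -2.82 on array 1 and -0.99 and -0.58 on array 2. STE4, the G beta gene, stood at -0.05 ± 0.12.

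The scaffold gene STE5 stood at 0.04 ± 0.09. The gene of the adaptor Ste50, which recruits the kinase Ste11, had -0.59 ± 0.10, but its first tag was at -1.52 and -1.51 and its second at 0.49 and 0.18. Strains lacking 1 copy of a pheromone kinase had a median of -0.19. STE11, which serves the Sho1 branch of the osmotic pathway too, had -0.43 ± 0.51, and its tags gave 0.41 and -1.99 on array 1 and 0.03 and -0.17 on array 2. The low value rested on 1 tag of array 1, whose 6 spots ran from -4.52 to 1.48. STE7, the MAP kinase kinase gene, had -0.01 ± 0.03, with tags between -0.10 and 0.07. FUS3, the mating MAP kinase gene, had -0.16 ± 0.16, with tags at -0.34 and -0.21 on array 1 and -0.34 and 0.25 on array 2. KSS1, the MAP kinase gene of filamentous growth, had -0.22 ± 0.28, with tags at -1.03 and 0.19 on array 1 and -0.19 and 0.15 on array 2.

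The transcription factor genes of the pheromone pathway had means close to 0. STE12 averaged 0.29 ± 0.54 from tags that opposed each other, at -1.77 and 1.58 on array 1 and -0.12 and 1.47 on array 2. TEC1, the partner of Ste12 at filamentation genes, had 0.09 ± 0.04. FAR1, which acts in cell cycle arrest and polarised growth towards a mate, had -0.22 ± 0.03 with all tags negative.

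DIG2 (YDR480W), which encodes an inhibitor bound to Ste12, had the most even values of all strongly negative members. Its tags gave -2.28 and -2.35 on array 1 and -2.60 and -2.21 on array 2, with no value inside 2-fold. Each of these values came from 1 spot, as did those of MID2 and BAG7. The mean was -2.36 ± 0.06, or 5.13-fold, at rank 33 of 5219 from the negative end, with a limma adjusted p of 0.229. DIG2 and RLM1 were the members whose 4 tag values all were at least 2-fold negative, which is 4.88% of the members, against 0.597% of all strains with 4 tag values. DIG1, the gene of the other Ste12 inhibitor, had 0.26 ± 0.10. SST2, whose product speeds up GTP hydrolysis on Gpa1, was the highest strain of this pathway at 0.30 ± 0.10, with all tags between 0.22 and 0.42. MSG5, a phosphatase gene acting on Fus3 and Slt2, stood at -0.10 ± 0.17.

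No high-osmolarity strain stood as far from 0 as the lowest strains of the other pathways. The 10 strains had a median of -0.01, with -0.005 on array 1 and -0.09 on array 2, and none was 2-fold from 0 on both arrays. Ratios were positive on both arrays for 3 strains (30.0%, against 32.7% of all strains) and negative on both for 4 (40.0%, against 41.7%).

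HOG1, the MAP kinase gene of the osmotic stress response, was the highest osmotic strain. Its tags gave -0.19 and 0.63 on array 1 and 0.82 and 0.77 on array 2, so that 3 of 4 were positive. The mean was 0.51 ± 0.41 (limma adjusted p 0.302). PBS2, the kinase gene directly above HOG1, had -0.07 ± 0.07, with tags at 0.04 and -0.09 on array 1 and -0.24 and 0.01 on array 2. The redundant kinases above Pbs2 also stood at 0, with 0.03 ± 0.32 for SSK2 and 0.03 ± 0.03 for SSK22. The SSK2 tags gave 0.18 and 0.34 on array 1 and -0.44 and 0.05 on array 2, and the SSK22 tags ran from -0.05 to 0.15.

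Of the osmotic sensing genes, SLN1, the histidine kinase gene, was lowest. Its tags gave -0.15 and -2.44 on array 1 and -0.69 and -1.05 on array 2, with a mean of -1.08 ± 0.30 (limma adjusted p 0.229). YPD1, which passes the phosphate on from Sln1, stood at 0.07 ± 0.02. SSK1, which receives that phosphate and activates Ssk2 and Ssk22 when it lacks it, had -0.60 ± 0.04. For SSK1 the first tag gave -2.14 and -1.63 and the second gave 0.88 and 0.49, each with 6 spots. The spots of the first tag ran from -3.35 to -1.20 on array 1 and from -2.35 to -1.35 on array 2, and those of the second from 0.72 to 0.93 and from 0.31 to 0.68, so that the tags of this strain did not overlap. SHO1, the membrane anchor of the other branch, had -0.08 ± 0.12. PTP2 and PTP3, tyrosine phosphatases that act on Hog1, had -0.04 ± 0.04 and 0.05 ± 0.48.

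**Figure D2:**
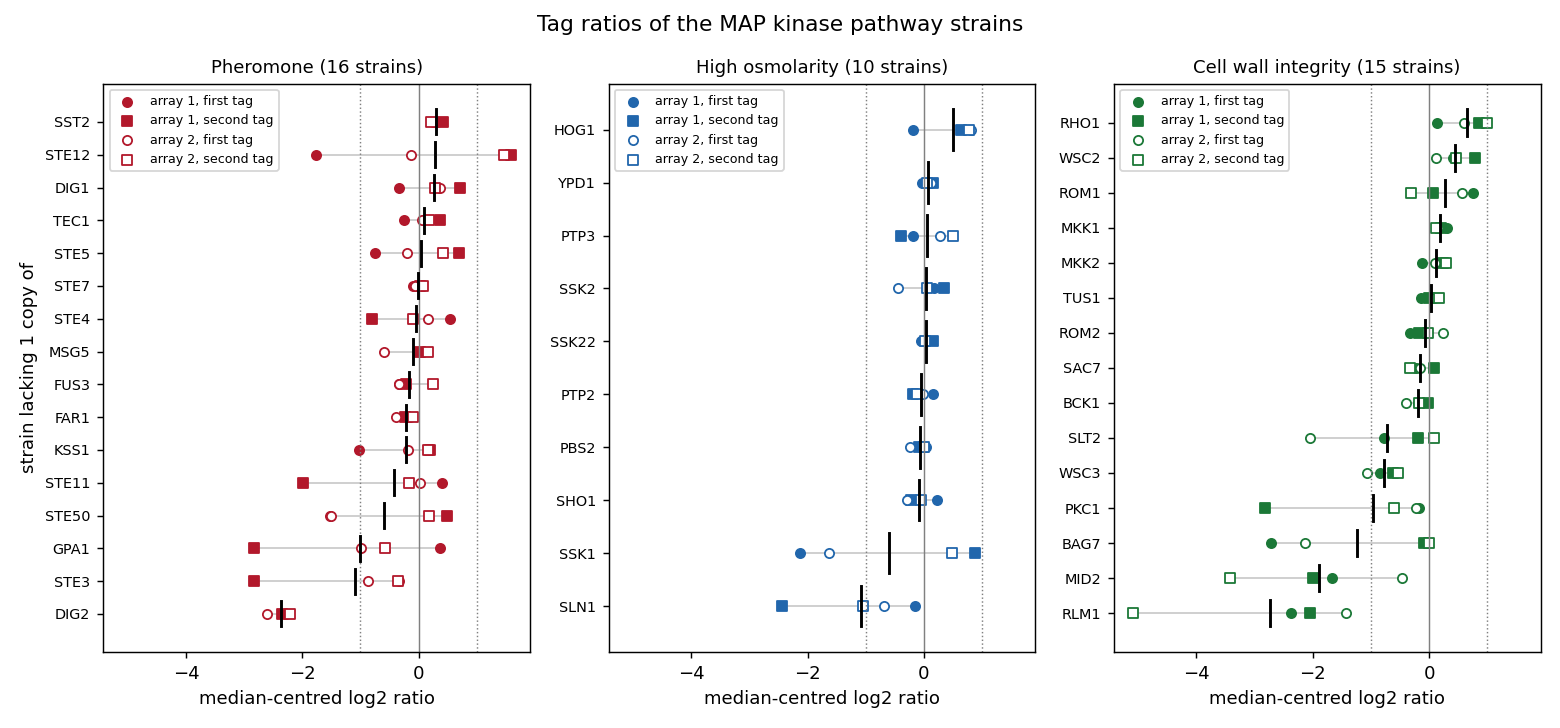
Median-centred log2 ratio (horizontal axis) of each tag of the 41 strains, by pathway; filled symbols are array 1, open symbols array 2, circles the first and squares the second tag, black bars the mean and dotted lines 2-fold. The 4 values of DIG2 lie together between -2.60 and -2.21, whereas those of BAG7 and SSK1 fall into separate groups by tag.

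The pathways did not differ in a way that both arrays shared, apart from a small difference between cell wall and osmotic strains. The median of the cell wall strains minus that of the osmotic strains was -0.10 on array 1 and -0.15 on array 2. The cell wall median minus the pheromone median was 0.06 on array 1 and -0.21 on array 2, and the pheromone median minus the osmotic median was -0.16 on array 1 and 0.06 on array 2. These differences were given no test, since members are not replicates and a permutation over 2 arrays could not pass a threshold of 0.05.

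Inhibitors and activators were then compared. Inhibitors were the genes whose products hold a pathway down (GPA1, SST2, DIG1, DIG2, MSG5, SLN1, YPD1, PTP2, PTP3, SAC7 and BAG7), and activators were all others. The 11 inhibitors had a median of -0.10, and the 30 activators had a median of -0.07. Their difference changed sign between arrays, at 0.02 on array 1 and -0.19 on array 2. Of the inhibitors 6 were negative (54.5%) and 3 positive (27.3%) on both arrays, and of the activators 14 were negative (46.7%) and 8 positive (26.7%). Among all strains these shares were 41.7% and 32.7%. The 2-fold negative strains comprised 2 of 11 inhibitors (18.2%, DIG2 and BAG7) and 2 of 30 activators (6.67%, RLM1 and MID2), against 3.74% of all strains. Within the pheromone pathway the difference of inhibitors and activators was 0.22 on array 1 and -0.20 on array 2, and within the osmotic pathway it was -0.18 and 0.15. Within the cell wall pathway it was negative on both arrays, at -0.64 on array 1 and -0.76 on array 2, but rested on 2 inhibitors, of which BAG7 was low through 1 tag. LRG1 and BEM2 were not members and did not enter it.

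**Figure D3:**
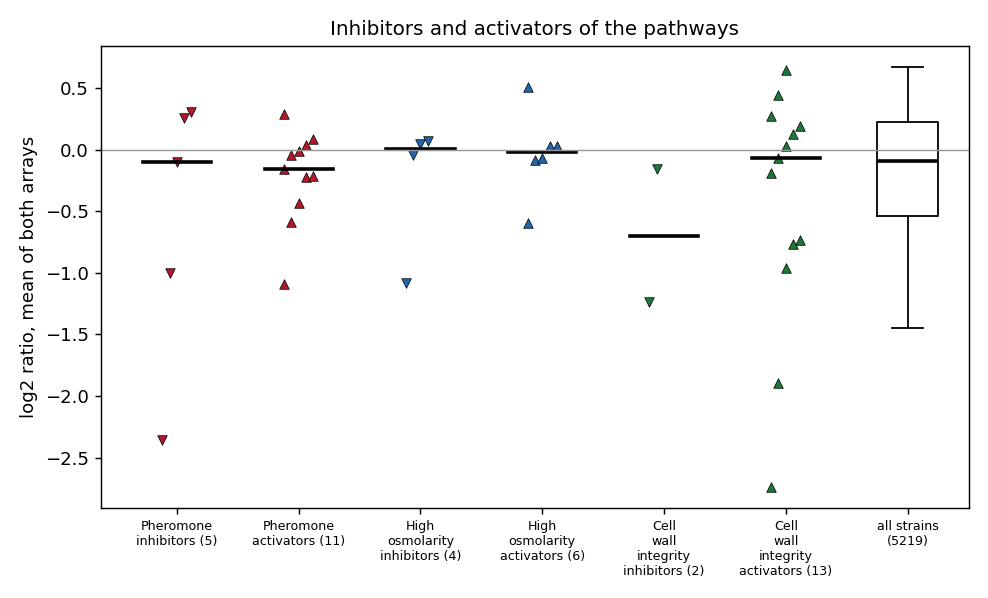
Mean log2 ratio over both arrays (vertical axis) of each strain, by pathway and class; triangles pointing down are inhibitors, triangles pointing up activators, and bars the medians. The box shows the quartiles and median of all 5219 strains, with whiskers at percentiles 5 and 95; the bars of the pheromone and osmotic classes lie within 0.16 of 0, and that of the 2 cell wall inhibitors lies at -0.70.

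Several pathway steps are served by a pair of related genes, and the strains of 8 such pairs were set side by side. DIG1 and DIG2 differed most, by 2.62 ± 0.16 (DIG1 minus DIG2), with 2.50 on array 1 and 2.73 on array 2. WSC2 minus WSC3 was 1.21 ± 0.16, at 1.33 and 1.10. SAC7 minus BAG7 was 1.08 ± 0.36, at 1.33 and 0.83, and rested on the first tag of BAG7. In these pairs the ranges over both arrays lay apart. ROM1 minus ROM2 was 0.34 ± 0.44, with 0.65 on array 1 and 0.03 on array 2. The ranges lay apart here too, but the difference was smaller than its spread. The pairs that serve as kinases or phosphatases differed by less than their spread, at 0.07 ± 0.18 for MKK1 minus MKK2, 0.06 ± 0.12 for FUS3 minus KSS1, 0.00 ± 0.29 for SSK2 minus SSK22 and -0.09 ± 0.51 for PTP2 minus PTP3. The differences between strains were not tested.

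**Figure D4:**
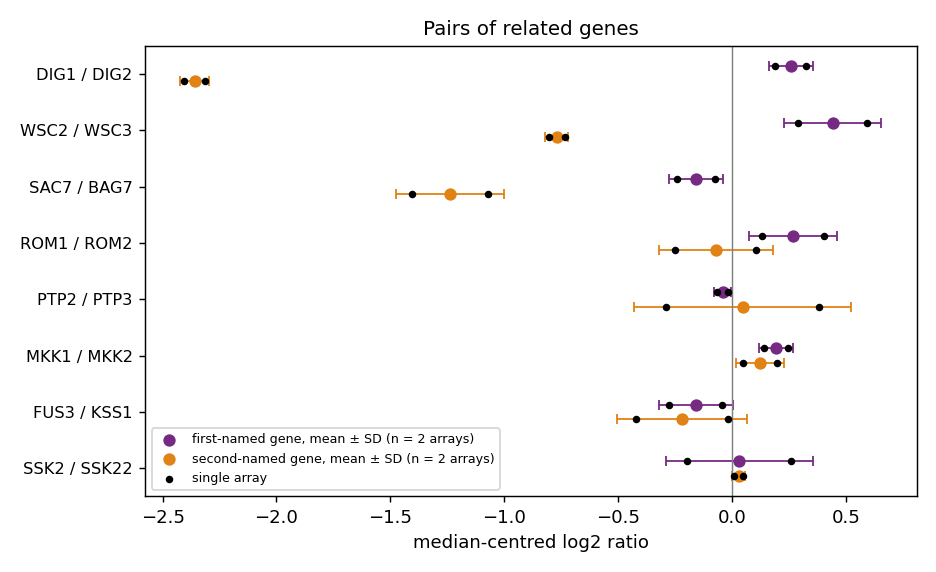
Log2 ratios (horizontal axis) of 8 pairs of related genes, as mean ± SD over 2 arrays, with black points for each array. DIG2, WSC3, BAG7 and ROM2 stand to the left of their partners on both arrays, ROM2 by only 0.03 on array 2. The error bars of the 5 pairs without DIG2, WSC3 or BAG7 overlap.

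Some means above hide tags that disagree. The median difference between both tags of a strain was 0.36 on array 1 and 0.35 on array 2 for the members, against 0.46 and 0.35 for all strains. The tags had opposite signs on both arrays in 9 members (22.0%), against 17.4% of all strains with 4 tag values. These 9 were STE4, STE5, STE50, STE11, STE7, KSS1 and STE12 of the pheromone pathway and SSK1 and PBS2 of the osmotic pathway, and 0 of 15 cell wall strains were among them. This count ignores size, since the STE7 tags were only 0.13 apart on each array. Cell wall tags of the same sign lay up to 3.66 apart (RLM1 on array 2). Their median difference was 0.33 on array 1 and 0.375 on array 2. All 4 tag values were negative in 9 members (22.0%, against 20.1%) and positive in 4 (9.76%, against 20.4%). The 4 were SST2, WSC2, RHO1 and MKK1. Across the 41 members, which share arrays and dye orientation, the difference of first and second tag on array 1 had a Pearson correlation of 0.41 with that on array 2, and the strain ratios had 0.86. Over 5191 strains these were 0.45 and 0.53. The 0.86 includes RLM1, DIG2, MID2 and BAG7, which were at least 2-fold negative on both arrays, and was not computed without them.

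A group of 5 members is essential in haploid cells, namely PKC1, RHO1, GPA1, SLN1 and YPD1, and was set apart after the values were seen. Their median was -1.23 on array 1 and -0.41 on array 2. PKC1, GPA1 and SLN1 were negative on both arrays, and their second tags on array 1 were the lowest of their values, at -2.82, -2.82 and -2.44. RHO1 and YPD1 were positive on both arrays. The essential strains thus lay on both sides of 0.

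Other genes of the pathways lay mostly near 0, with 3 strains past 2-fold on both arrays. Of 82 further genes listed for upstream, processing and output steps, 81 were measured, with a median of -0.05. Ratios were negative on both arrays for 29 (35.8%, against 41.7% of all strains) and positive on both for 29 (35.8%, against 32.7%). Among them 2 were at least 2-fold negative on both arrays (2.47%) and 1 was 2-fold positive (1.23%), which is close to the shares of all strains given above. By limma 0 passed after adjustment, while at an unadjusted p under 0.05 there were 8 negative (9.88%, against 11.7% of all strains) and 6 positive genes (7.41%, against 9.12%).

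Among the other pheromone genes, AKR1, a palmitoyl transferase gene first known for a role in pheromone signalling, was highest at 1.30 ± 0.11. Its tags gave 1.31 and 1.12 on array 1 and 1.59 and 1.17 on array 2, at rank 20 of 5219 from the positive end (limma adjusted p 0.229). STE13, a protease gene in alpha-factor maturation, had -1.53 ± 0.17, with all tags from -2.28 to -1.03. AGA2, an agglutinin subunit gene, was lowest at -2.0 ± 1.97, with -3.39 on array 1 and -0.60 on array 2, a difference larger than its mean.

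Of the other osmotic genes, SKN7, a transcription factor gene downstream of Sln1 that also serves the cell wall, was highest at 0.81 ± 0.24, with all tags from 0.62 to 1.28. CDC42, the polarity GTPase gene shared with the pheromone pathway, was lowest at -1.23 ± 0.75. Of the other cell wall genes, SKN7 was again highest and SED1, a gene for a cell wall mannoprotein, was lowest. The SED1 tags gave -2.03 and -2.53 on array 1 and -1.68 and -2.70 on array 2, and its mean was -2.23 ± 0.07. By limma on both tags, blocked on the array, 6 of the 81 genes passed, with the limit of that fit given above. The negative ones were SED1 (adjusted p 0.0217) and STE13 (0.0303), or 2.47%, against 3.18% of all strains. The positive ones were AKR1 (0.023), FUS2 (0.0365), SKN7 (0.041) and OPY2 (0.0452), or 4.94%, against 6.71% of all strains. FUS2, a cell fusion gene, and OPY2, a membrane anchor gene of the osmotic pathway, were named after their values were seen, at 0.70 ± 0.09 and 0.59 ± 0.05.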

How the data were processed

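Tag ratios were measured on 2 arrays that form 1 group. Each spot has 1 deposited log2 ratio, for which no background correction, normalization or direction is stated; images were analysed with GenePix 5.1, per the labels. The 40008 values were logs of ratios with 2 decimals, within 0.001. Of these, 2 filled-in values far above all others were treated as missing. Gene names came from the platform annotation given, and symbols were matched to the R64 gene table by gene ID.

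Spots of a tag (1 or 6) were averaged, the median of each tag set on each array (-0.12 on array 1 and -0.04 on array 2) was subtracted, and both tags were averaged. The 105 symbols with tags of more than 1 strain were left out. All 5219 strains were tested against 0 with limma 3.58.1 (lmFit, eBayes, R 4.3.3, two-sided, Benjamini-Hochberg over all strains, threshold 0.05). On simulated data this step was required to find the changes put in only where the spread between arrays was small. Its power at the spread of these data is not given here. Tables were made with Python 3.11.15, pandas 2.3.3 and matplotlib 3.10.9.

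The members, their classes and the lists were chosen with earlier results of these data known. All members could be named. Of the other pathway genes, those at least 2-fold from 0 in 1 direction on both arrays and the highest and lowest of each list were named. LRG1, BEM2, WSC1, MTL1, FUS2 and OPY2 were named after their values were seen. Alternatives changed the centring, the tags, the spots, the arrays, the assignment of genes to pathways or classes, and the fit.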

Additional observations from a re-analysis of the deposited data

How the results depend on the processing

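No paired analysis was possible because the arrays form 1 group. The members past 2-fold on the negative side numbered 4 or 5 under every change of centring, tags or spots. Of all strains 3.51% to 5.13% were so under these changes. With an array left out, such members numbered 4 on array 2 alone (5.84% of all strains) and 8 on array 1 alone (19.3%). RLM1 and DIG2 were among them in each case. BAG7 was not with the second tag set alone, where SLN1 entered. MID2 was not with the first, where STE50 and SSK1 entered. With the second tag set alone 1 member, STE12, was 2-fold positive, as were 1.35% of all strains. By limma 0 members passed under 8 other settings, 3 with the array and 1 with the tag set as a random block. The block fits had the same ratios and used both tags as separate values.

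With the first tag set alone the pheromone median was -0.30. With the second tag set alone the medians were 0.072 for pheromone, 0.067 for osmotic and 0.035 for activator strains, so that these turned positive. Without centring the medians were -0.088 for osmotic and -0.15 for activator strains. Means in place of medians were -0.33 (pheromone), -0.12 (osmotic), -0.47 (cell wall), -0.27 (activators) and -0.48 (inhibitors). The mean over all strains was -0.20, against a median of -0.09. Single arrays gave -0.16 to -0.031 for pheromone, -0.092 to -0.005 for osmotic and -0.22 to -0.074 for inhibitor strains. Leaving out the centring shifted every strain by the same amount, -0.12 on array 1 and -0.04 on array 2. Except for that and the use of single tags, whose disagreement is given above, the cause was not tested. Counting STE11 and STE50 as osmotic, or leaving out SLN1 and YPD1 or KSS1, TEC1 and FAR1, moved the medians by less than their spread between arrays. Of the 41 single strains, 10 changed sign with the first tag set alone, 7 with the second, 6 without centring, and 4 and 6 on single arrays. None of these was 2-fold from 0 on both arrays.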

Other observations

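The strains deleted for genes beside the strongly negative members were looked up after the values were seen, in the gene order of the R64 table. The neighbours of DIG2 did not share its ratio. PEX29, a peroxisome gene, had 0.27 ± 0.20 and PHO8, the vacuolar alkaline phosphatase gene, had 0.47 ± 0.09 (SD, n = 2 arrays). Both stood on the positive side on both arrays, against -2.36 ± 0.06 for DIG2.

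Beside RLM1, RPS6A, a ribosomal protein gene, stood at -0.11 ± 0.02 and YPL088W at -0.77 ± 0.63. Of the genes beside MID2, RPS25B, also a ribosomal protein gene, was negative on both arrays at -1.37 ± 1.10, and the other was not measured as a strain. Both neighbours of BAG7 were negative on both arrays, at -1.15 ± 1.05 for EFT1, an elongation factor gene, and -0.60 ± 0.12 for IDH2, an isocitrate dehydrogenase gene. None of these 7 neighbours was 2-fold from 0 on both arrays. By the same rule 3.74% of all strains were negative and 0.728% positive, so a count of 0 among 7 tells little. On array 1 alone RPS25B (-2.15), EFT1 (-1.89) and YPL088W (-1.21) were past 2-fold negative, as were 19.3% of all strains. Of the 41 members 0 lie on chromosome XIII with TUB1 and 2 on chromosome V with URA3, SHO1 and PTP3, with 151 and 107 annotated genes between them and URA3.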
